A study of Mus musculus with 2 samples.

Results

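The serpins and the kallikrein-related peptidases of the mouse blastocyst at E3.75 were compared between the inner cell mass (ICM) and the whole embryo. The members are all genes of the deposited table whose symbol begins with Serpin, or with Klk and a number. Serpinh1, a collagen chaperone that inhibits no protease, was left out. This gave 82 of the 19559 listed genes, 56 serpins and 26 kallikreins. The ICM library came from ICMs isolated by immunosurgery, in which antibody and complement lyse the outer trophectoderm, and the whole-blastocyst library came from intact embryos that still hold their ICM. Both were embryos of B6CBAF1 females and CD-1 males with no further treatment given, and the sources used here do not say how many embryos a library holds. With a single library of each kind there was no replicate spread to compare a difference with, and no p-value was computed.

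Serpins are suicide inhibitors. A target protease cuts an exposed stretch of the serpin, the reactive centre loop, and is then trapped in a covalent complex, so the loop sequence sets which protease is caught. Clades are named by letter. Clade A holds mostly secreted plasma proteins such as antitrypsin, clade B holds serpins without a classical signal peptide that act largely inside cells, and clade E holds the inhibitors of the plasminogen activators and thrombin. Kallikreins are secreted trypsin-like or chymotrypsin-like serine proteases encoded side by side in 1 large locus, and some of them are inhibited by serpins. Trophoblast, the lineage that the trophectoderm founds, uses serine proteases and their inhibitors at implantation.

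Levels are given as RPKM (reads divided by the length of the gene in kilobases and by a library total), the authors' value, next to the read count behind it. The listed genes held 4125479 reads in the ICM library and 9271198 reads in the whole-blastocyst library. A difference is log2((ICM RPKM + 1)/(whole-blastocyst RPKM + 1)), and a gene is called measured where either library reached an RPKM of 1. Over the 8981 measured genes the median difference was -0.84. It was -0.66 where both libraries reached an RPKM of 5, and differences relative to that value are called centred. Centring multiplies every ratio of ICM to whole blastocyst by 1.58. Ratios carry 95% exact conditional (Clopper-Pearson) intervals from the read counts, which cover counting error only, because amplified reads are not independent molecules. Lineage markers followed the labels. Of 10 trophectoderm markers 9 were at least 2-fold lower in the ICM library and none was 2-fold higher, and their summed RPKM was 53.3 in the ICM and 1674 in the whole blastocyst. Of 8 epiblast markers 7 were at least 2-fold higher, as were 6 of the 7 measured primitive endoderm markers, and none of either list was 2-fold lower.

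Most of the family had no read or only a few. No read was found in either library for 57 of the 82 genes (69.5%), compared with 28.3% of all listed genes. The sources used here do not give the handling of reads that map to several places. Such reads may be missing from members with close copies, so no read need not mean no expression. Another 14 members had reads but stayed under an RPKM of 1 in both libraries, with at most 19 reads in either. The remaining 11 were measured, 8 serpins and 3 kallikreins. Of these 11, 6 were at least 2-fold lower in the ICM library (Serpinb6a, Serpinb6b, Serpinb6c, Serpinb9b, Serpine2 and Klk7), against a background of 44.0% of all measured genes. At least 2-fold higher were 3 (Serpina3n, Klk4 and Klk13), against 8.96% of all measured genes. These 3 passed the filter through the ICM library alone, and a gene with no whole-blastocyst read that passes it must be at least 2-fold higher. Among the 6 lower genes, Serpinb6b and Serpinb6c passed it through the whole-blastocyst library alone. Relative to the centre, 6 were lower and 4 higher, against 20.5% and 16.9% of all measured genes.

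**Figure D1:**
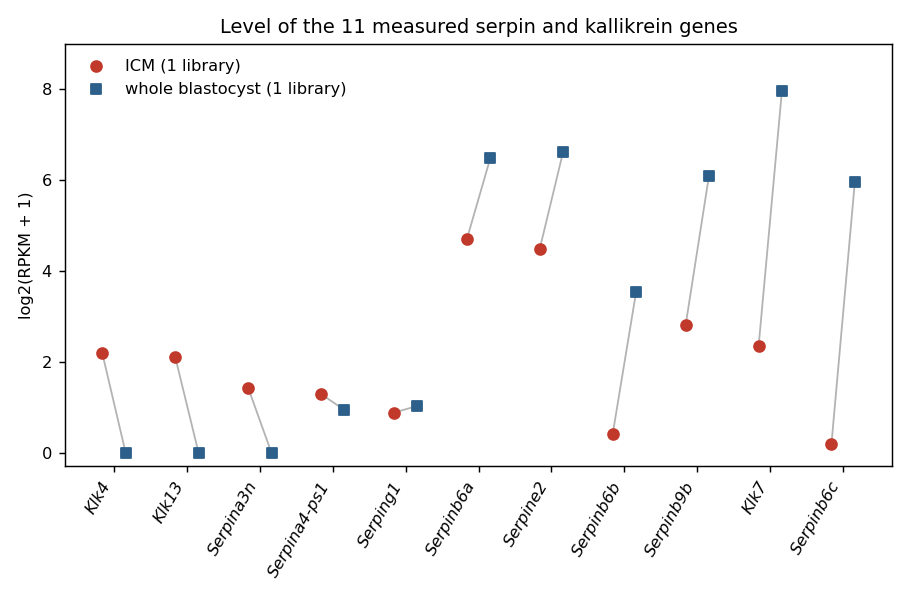
Level of the 11 measured genes as log2(RPKM + 1) in the ICM library (circles) and the whole-blastocyst library (squares), 1 library each, ordered by their difference. Klk7 had 4.07 RPKM in the ICM and 248.4 RPKM in the whole blastocyst, and Serpinb6c had 0.153 RPKM in the ICM and 61.2 RPKM in the whole blastocyst, whereas Klk4, Klk13 and Serpina3n had no whole-blastocyst read.

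The 4 clade B genes that were measured lie in 1 locus on chromosome 13 and are paralogs. Their reactive centre loops are shown because this stretch sets the target and because reads of close copies can be confused. The sequences are coding bases of GENCODE M21 transcripts (GRCm38 annotation), 5′ to 3′ on the sense strand, from the hinge of the loop to the base before a conserved proline and phenylalanine pair. Capitals mark bases that are not the same in all 4 genes in an alignment of their open reading frames, and 39 bases are shared by all.
Serpinb6a: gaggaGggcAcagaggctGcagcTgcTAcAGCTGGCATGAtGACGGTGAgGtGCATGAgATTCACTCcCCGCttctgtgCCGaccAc
Serpinb6b: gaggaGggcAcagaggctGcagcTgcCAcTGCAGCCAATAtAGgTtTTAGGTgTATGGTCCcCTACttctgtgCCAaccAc
Serpinb6c: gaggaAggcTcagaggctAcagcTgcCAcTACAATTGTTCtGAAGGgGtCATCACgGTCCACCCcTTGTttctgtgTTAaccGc
Serpinb9b: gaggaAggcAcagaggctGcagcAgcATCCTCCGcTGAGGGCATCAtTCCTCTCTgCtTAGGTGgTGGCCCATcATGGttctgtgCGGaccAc
The hinge at the left and the last bases at the right were largely shared, and the stretch between them was not. The loops differ in length too, at 87, 81, 84 and 93 bases in the order shown. Of the 87 bases of Serpinb6a, 59 were matched in Serpinb6b, 54 in Serpinb6c and 56 in Serpinb9b. Over the whole open reading frame, Serpinb6a was 85.9% identical to Serpinb6b and 86.5% to Serpinb6c, and 66.0% identical to Serpinb9b. Stretches of 50 bases shared exactly with a transcript of another gene made up 2.68% of those in Serpinb6a, 3.13% in Serpinb6b, 10.4% in Serpinb6c and 0.499% in Serpinb9b. The sources used here give neither the read length nor the handling of reads that map to several places. The split of reads among the Serpinb6 genes is therefore uncertain, and the shares of 50-base stretches do not bound that uncertainty.

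Clade B carried the largest part of the serpin signal in the whole blastocyst. Of its 25 listed genes 14 had no read, 7 stayed under an RPKM of 1 and 4 were measured. All 4 of those were at least 2-fold lower in the ICM library, against 44.0% of all measured genes. Of them, Serpinb6b and Serpinb6c passed the filter through the whole-blastocyst library alone. Of the 7 under an RPKM of 1, Serpinb9 and Serpinb1a had more reads in the ICM and the others had more in the whole blastocyst. Summed over the clade, the RPKM was 32.1 in the ICM and 228.5 in the whole blastocyst, 7.11-fold lower. The median difference of the 4 genes was -3.20, beside -0.84 over all measured genes.

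Serpinb6a encodes an intracellular inhibitor whose human counterpart, SERPINB6, blocks cathepsin G and trypsin-like enzymes. It had 25.1 RPKM (491 reads) in the ICM and 88.4 RPKM (2049 reads) in the whole blastocyst. The ratio was 0.284 (0.257 to 0.314), 3.52-fold lower. It had the highest RPKM of clade B in both libraries. Its difference of -1.77 was -0.88 when the libraries were scaled to their listed gene reads, short of 2-fold. Its exons overlap those of Nqo2 and Ripk1 on the other strand in GENCODE M21. The sources used here do not say whether counting used strand, so part of its reads may belong to those genes.

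Serpinb6b and Serpinb6c, close paralogs of Serpinb6a in the mouse, were nearly absent from the ICM library. Serpinb6c had 0.153 RPKM (3 reads) in the ICM and 61.2 RPKM (1421 reads) in the whole blastocyst, a ratio of 0.00251 (0.000516 to 0.00734). At the same RPKM in both libraries, 1197 reads would have been counted in the ICM. Its difference of -5.75 was the third lowest of all 8981 measured genes. Serpinb6b had 0.341 RPKM (14 reads) in the ICM and 10.6 RPKM (517 reads) in the whole blastocyst, a ratio of 0.0321 (0.0174 to 0.0544).

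The 3 Serpinb6 genes therefore differed in how much of their signal was left. Serpinb6a took 96.7% (94.7 to 98.04) of the Serpinb6 reads in the ICM and 51.4% (49.8 to 53.0) in the whole blastocyst. Serpinb6c took 0.591% (0.122 to 1.72) in the ICM and 35.6% (34.2 to 37.2) in the whole blastocyst. The ratio of ICM to whole blastocyst was 12.8 times higher for Serpinb6b than for Serpinb6c (exact conditional interval 3.55 to 69.8). Set against Serpinb9b, the ratio of Serpinb6a was 3.18 times higher (2.69 to 3.77). Such comparisons within the pair of libraries do not depend on how the libraries are scaled to each other.

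Serpinb9b belongs to the mouse relatives of SERPINB9, the human inhibitor of the cytotoxic protease granzyme B. It had 6.04 RPKM (231 reads) in the ICM and 67.6 RPKM (3067 reads) in the whole blastocyst, a ratio of 0.0894 (0.0779 to 0.102) or 11.2-fold lower. Its exons overlap an antisense transcript, Gm36099, in GENCODE M21. Serpinb9 itself, the nearest relative of the human gene, went the other way at very low level, with 13 reads in the ICM and 2 in the whole blastocyst, a ratio of 7.72 (1.75 to 70.4). Of the other 5 listed Serpinb9 genes, Serpinb9e had no ICM read and 11 whole-blastocyst reads, and the remaining 4 had none in either library. Serpinb1a, of a family that inhibits neutrophil elastase, had 13 and 5 reads in the ICM and the whole blastocyst, a ratio of 3.09 (1.03 to 11.1). Their ICM levels were low, 0.137 RPKM for Serpinb9 and 0.303 RPKM for Serpinb1a.

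**Figure D2:**
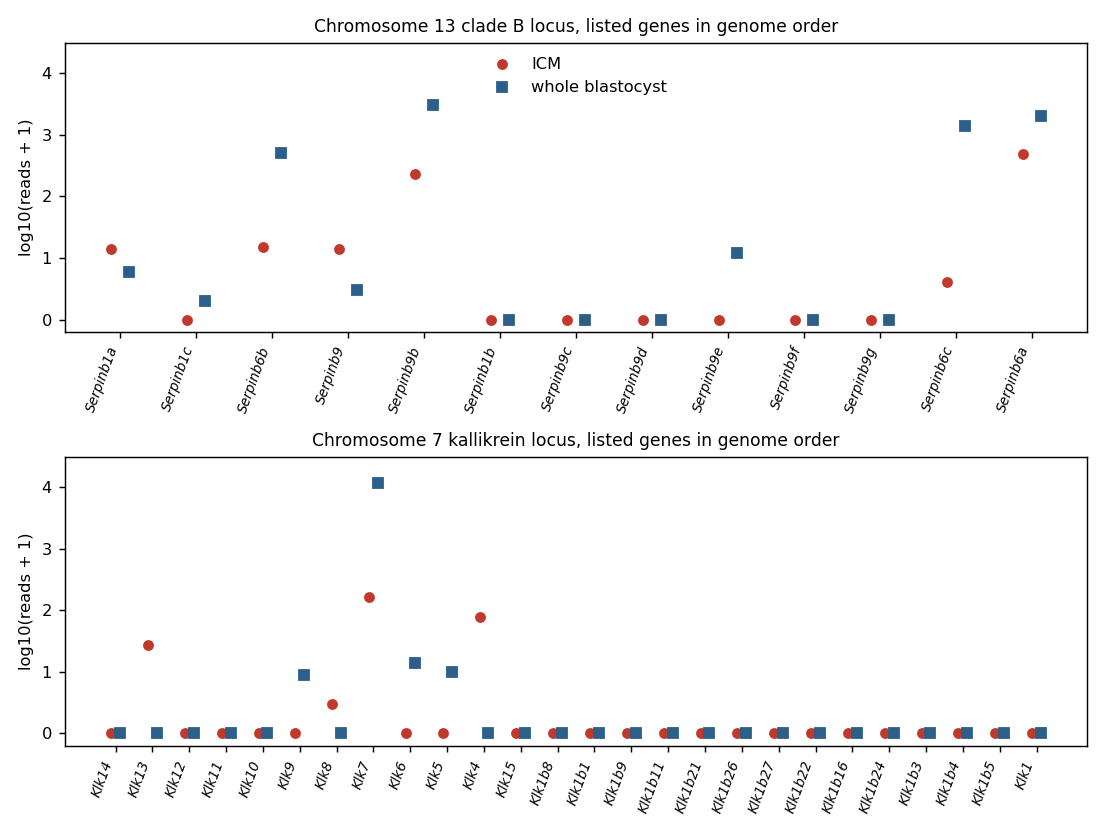
Reads per gene, as log10(reads + 1), for the listed genes of the chromosome 13 clade B locus and the chromosome 7 kallikrein locus, in genome order (RefSeq, GRCm38.p6), in the ICM library (circles) and the whole-blastocyst library (squares). Klk7 had 164 ICM reads and 11874 whole-blastocyst reads, while the genes on either side, Klk8 and Klk6, had at most 13 in either library.

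The position in the genome separated the clade further. The 13 listed clade B genes of chromosome 13 held 765 reads in the ICM and 7073 in the whole blastocyst, whereas the 12 on chromosome 1 held 1 in the ICM and 25 in the whole blastocyst. The chromosome 1 genes with a read were Serpinb5 (maspin, no ICM read and 19 whole-blastocyst reads), Serpinb8, an inhibitor of the convertase furin (1 ICM read and 5 whole-blastocyst reads), and Serpinb13 (no ICM read and 1 whole-blastocyst read). Within chromosome 13, reads did not follow the order of the genes. Serpinb6b and Serpinb9b lie at one end with Serpinb9 between them, and Serpinb6c and Serpinb6a lie next to each other at the other end of the locus. The genes between these ends had at most 11 reads in either library.

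In clade E, Serpine2 was the measured gene. It encodes protease nexin-1, a secreted, heparin-binding inhibitor of thrombin, urokinase and tissue plasminogen activator. It had 21.6 RPKM (588 reads) in the ICM and 97.99 RPKM (3167 reads) in the whole blastocyst, where it was the serpin with the highest level. The ratio was 0.220 (0.201 to 0.241), 4.54-fold lower. The ratio of ICM to whole blastocyst was 1.29 times higher for Serpinb6a than for Serpine2 (1.13 to 1.48), and these were the 2 serpins with the highest RPKM in both libraries.

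Clade A, the plasma serpins, was almost unread. Of 22 listed genes 19 had no read, among them the 6 antitrypsin genes Serpina1a to Serpina1f and the hormone carriers Serpina6 and Serpina7. Markers of liver and visceral endoderm, where clade A genes are typically active, were likewise near 0, with none of 8 measured and a summed RPKM of 0.741 in the ICM and 0.828 in the whole blastocyst. Serpina3n, an acute-phase relative of antichymotrypsin, had 1.70 RPKM (59 reads) in the ICM and no whole-blastocyst read. With a floor of 3 reads set for the whole-blastocyst library its ICM level was at least 23.3-fold higher, and by the exact limit at least 18.4-fold. Stretches shared exactly with other genes made up 6.90% of its 50-base stretches. Serpina4-ps1, a pseudogene related to the kallikrein inhibitor kallistatin, had 1.45 RPKM (69 reads) in the ICM and 0.923 RPKM (52 reads) in the whole blastocyst, a ratio of 1.58 (1.08 to 2.30). Its difference of 0.35 came to 1.01 after centring. Serpina3m had 10 ICM reads and 6 whole-blastocyst reads.

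The remaining clades were small. Serping1, which encodes the C1 inhibitor of the complement and contact systems, had 0.847 RPKM (15 reads) in the ICM and 1.05 RPKM (22 reads) in the whole blastocyst. Its ratio of 0.809 (0.390 to 1.63) could not be told from 1 at this depth, and its difference of -0.15 became 0.51 after centring. Serpinc1 (antithrombin) had 2 reads in the ICM and 10 in the whole blastocyst, and Serpini1 (neuroserpin) had none in the ICM and 9 in the whole blastocyst. Serpind1, Serpinf1, Serpinf2 and Serpini2 had no read in either library. The median difference was 0.89 over the 2 measured clade A genes, -2.13 for Serpine2 of clade E and -1.95 over the 8 measured serpins.

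**Figure D3:**
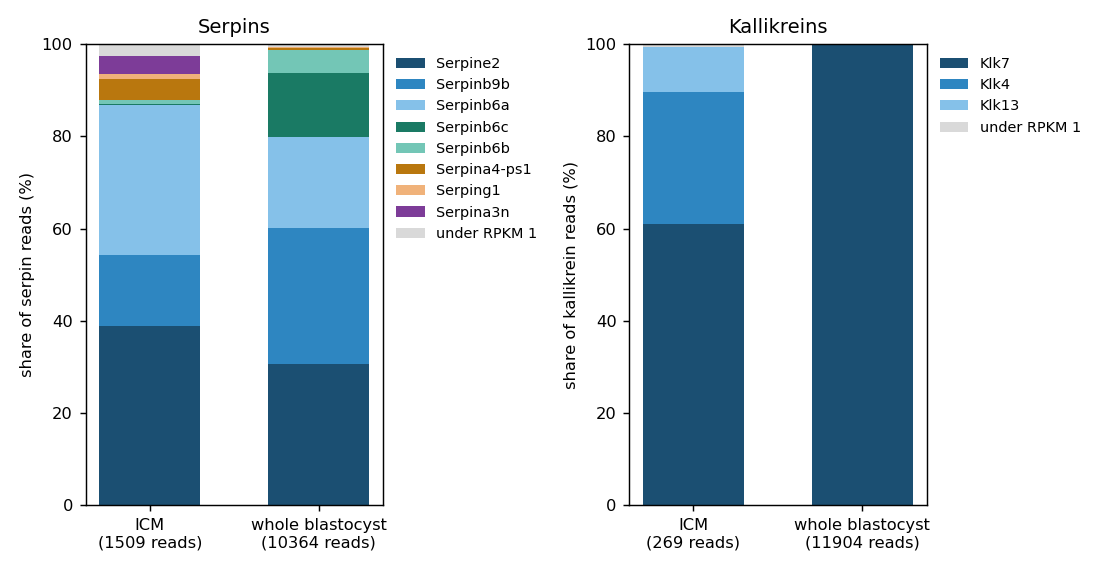
Share of all serpin reads (left) and all kallikrein reads (right) taken by each measured gene, in the ICM library and the whole-blastocyst library, with members under an RPKM of 1 in grey. Serpinb6c took 0.199% of the ICM and 13.7% of the whole-blastocyst serpin reads, and Klk7 took 61.0% of the ICM and 99.7% of the whole-blastocyst kallikrein reads, which are not divided by gene length.

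The make-up of the serpin reads differed between the libraries. Serpine2 took 39.0% (36.5 to 41.5) of the serpin reads in the ICM and 30.6% (29.7 to 31.5) in the whole blastocyst. Serpinb6a took 32.5% (30.2 to 35.0) in the ICM and 19.8% (19.0 to 20.6) in the whole blastocyst. Serpinb9b took 15.3% (13.5 to 17.2) in the ICM and 29.6% (28.7 to 30.5) in the whole blastocyst. The summed serpin RPKM was 58.3 in the ICM and 329.1 in the whole blastocyst, 5.64-fold lower, beside 1.95-fold for the RPKM summed over all listed genes.

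Klk7 held 36.4% of the summed kallikrein RPKM in the ICM, beside 31.8% for Klk4 and 29.6% for Klk13, and 99.3% in the whole blastocyst. Klk7 encodes a chymotrypsin-like protease known from skin, where it cleaves the adhesion proteins that hold cornified cells together. It had 4.07 RPKM (164 reads) in the ICM and 248.4 RPKM (11874 reads) in the whole blastocyst, where it ranked 74 among all genes by RPKM. The ratio was 0.0164 (0.0140 to 0.0191), 61.0-fold lower, and its difference of -5.62 was the fourth lowest of the 8981. Without Klk7 the other 25 kallikreins summed to 105 reads in the ICM and 30 in the whole blastocyst. No 50-base stretch of its transcript was found in another gene.

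Klk4 and Klk13 were read in the ICM library alone. Klk4, a protease of enamel maturation, had 3.56 RPKM (77 reads) in the ICM and no whole-blastocyst read, at least 30.5-fold higher against a floor of 3 reads and at least 24.2-fold by the exact limit. Klk13 had 3.31 RPKM (26 reads) in the ICM and no whole-blastocyst read, at least 10.3-fold higher against the floor and at least 7.79-fold by the exact limit. Their RPKM values were close although the reads were not, because the authors' length for Klk13 was short: 1 RPKM in the whole-blastocyst column stood for 9.32 reads of Klk13, 25.7 of Klk4 and 47.8 of Klk7. Among all 19559 listed genes, 242 (1.24%) had 20 or more ICM reads and no whole-blastocyst read, and among the 82 members 3 did, a threshold chosen after the values were seen. With a pseudocount of 5 in place of 1, the differences of Klk4 (0.78), Klk13 (0.73) and Serpina3n (0.42) were under the 2-fold limit.

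The other kallikreins had few reads or none. Klk5, which activates Klk7 in skin, Klk6 and Klk9 had no ICM read and 9, 13 and 8 whole-blastocyst reads. Klk8 (neuropsin) had 2 ICM reads and no whole-blastocyst read. No read was found for Klk1, the tissue kallikrein that releases kinins, for any of the 13 listed Klk1b genes, or for 5 others. The median difference of the 3 measured kallikreins was 2.11, because 2 of them are the genes read in the ICM alone, and it was -0.30 over the 7 kallikreins with a read, whereas the RPKM summed over all kallikreins was 22.3-fold lower in the ICM. The median of all measured genes was -0.84. Kallikrein RPKM amounted to 0.192 of serpin RPKM in the ICM and 0.760 in the whole blastocyst.

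The promoters of Klk7 and Klk4 are shown because these genes of 1 locus, with Klk6 and Klk5 between them, had opposite ratios. Of the 11 measured genes 9 have a promoter in the RefSeq table (250 bases before to 50 after the start, GRCm38.p6), with 10 promoters in all. The promoter of Klk7 lies at chr7:43811044-43811343, plus strand, with capitals at its match to the GATA motif AGATAA.
Klk7: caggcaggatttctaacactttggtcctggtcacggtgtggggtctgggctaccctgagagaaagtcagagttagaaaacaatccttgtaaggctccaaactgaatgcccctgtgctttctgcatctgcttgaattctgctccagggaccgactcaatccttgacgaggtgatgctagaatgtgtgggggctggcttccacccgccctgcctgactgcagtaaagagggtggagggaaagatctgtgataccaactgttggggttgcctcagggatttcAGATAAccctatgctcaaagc
The promoter of Klk4 lies at chr7:43880910-43881209, plus strand, with capitals at its match to the TEAD motif GGAATG.
Klk4: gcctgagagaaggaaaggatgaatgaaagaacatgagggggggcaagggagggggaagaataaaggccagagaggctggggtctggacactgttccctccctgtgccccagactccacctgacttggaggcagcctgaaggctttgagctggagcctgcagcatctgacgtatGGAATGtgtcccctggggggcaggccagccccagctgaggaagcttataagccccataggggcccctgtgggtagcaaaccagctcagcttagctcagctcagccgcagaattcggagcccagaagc
Motifs were searched on both strands. The motif of GATA factors, AGATAA, was found in 1 of the 10 promoters, that of Klk7, and in 11.2% of all 32851 promoters of the table. TEAD (GGAATG) was found in 2, those of Klk4 and Serpinb6a, and in 14.7% of all. AP-2 (GCCNNNGGC) was found in 1, that of Serpinb6c, and in 16.6% of all. CDX (TTTATGG) was found in none of the 10 and in 2.75% of all. These are matches of letters in the windows and describe nothing else.

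**Figure D4:**
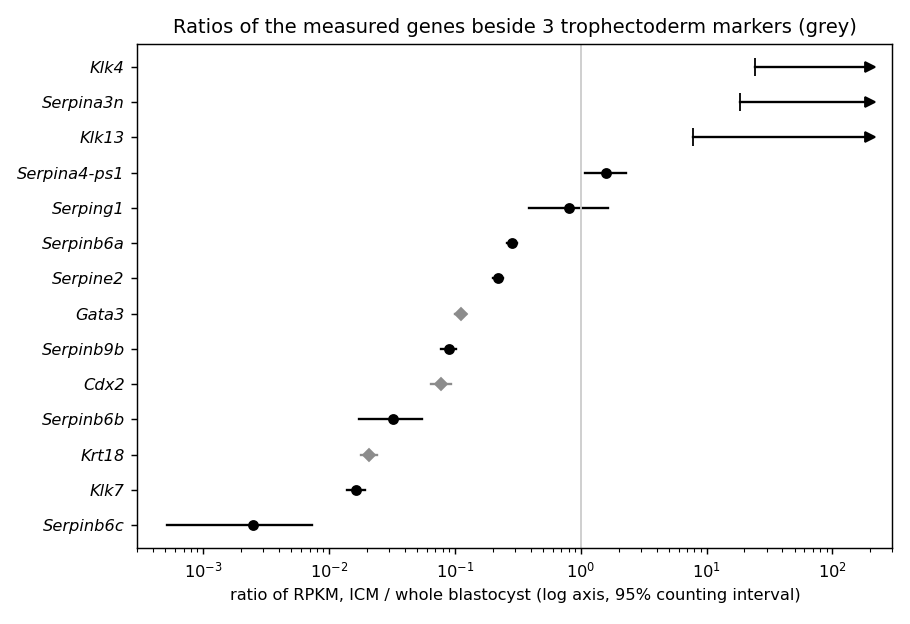
Ratio of RPKM, ICM over whole blastocyst, on a log axis with 95% counting intervals, for the 11 measured genes (black) and the trophectoderm markers Krt18, Cdx2 and Gata3 (grey). Arrows mark genes with no whole-blastocyst read, drawn from their lower exact limit. The lower genes spanned 0.00251 (Serpinb6c) to 0.284 (Serpinb6a).

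Between these libraries the 6 lower genes were not lower to the same degree. Their order from the lowest ratio was Serpinb6c, Klk7, Serpinb6b, Serpinb9b, Serpine2 and Serpinb6a. The counting intervals of neighbours in the order excluded equal ratios in each case. The order was set by the same ratios, and the intervals leave out amplification and replicate spread, so a difference between neighbours beyond these libraries was not tested. The closest neighbours were Serpinb6b over Klk7 at 1.96 (1.04 to 3.41) and Serpinb6a over Serpine2 at 1.29. Set against Krt18, a keratin of the trophectoderm with a ratio of 0.0208 (0.0180 to 0.0239), the ratio of Klk7 was 0.790 of it (0.637 to 0.977) and that of Serpinb6c 0.121 (0.0246 to 0.359). The ratio of Serpinb6b was 1.55 times that of Krt18 (0.825 to 2.68). Set against the transcription factor gene Cdx2, with a ratio of 0.0777, the ratio of Serpinb9b was 1.15 times as high (0.916 to 1.45), that of Serpine2 2.84 times (2.32 to 3.49) and that of Serpinb6a 3.66 times (2.98 to 4.52). In bulk RNA, fewer cells of a type and less RNA per cell cannot be told apart. The 10 trophectoderm markers had lower values in the ICM library together with these 6 genes (2 of the markers, Elf5 and Krt7, had no ICM read), and their part in the result was not tested. Markers of cumulus and uterine cells were also lower in sum, at 3.83 RPKM in the ICM and 44.2 RPKM in the whole blastocyst (4 of 8 measured). Of these 4, 2 were at least 2-fold lower and 1 higher, against 44.0% and 8.96% of all measured genes. Cyp11a1 had no ICM read and 324 whole-blastocyst reads, whereas Cyp19a1 had 91 ICM reads and no whole-blastocyst read. The other lower gene, Wfdc2, had 1.08 RPKM in the ICM and 20.5 RPKM in the whole blastocyst, and is counted again below among the inhibitors of serine proteases. Blood and immune markers summed to 0.486 RPKM in the ICM and 3.02 RPKM in the whole blastocyst (2 of 7 measured). The part of these cells was not tested either.

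Targets and partners of these inhibitors were read from lists of related genes, in which the up to 3 largest differences past 2-fold are named. In the plasminogen system, which Serpine2 restrains, 3 of 7 genes were measured. All 3 were at least 2-fold lower in the ICM, a call that 44.0% of all measured genes had. They passed the filter through the whole-blastocyst library alone. Plat, tissue plasminogen activator, had no ICM read and 18.8 RPKM (760 reads) in the whole blastocyst, at least 213-fold lower against a floor of 3 reads and at least 173-fold by the exact limit. Plaur, the urokinase receptor, had 0.541 RPKM (13 reads) in the ICM and 3.15 RPKM (90 reads) in the whole blastocyst. Plgrkt, a plasminogen receptor, had 1 ICM read and 41 whole-blastocyst reads. Urokinase itself, Plau, had 3 ICM reads and 1 whole-blastocyst read.

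The measured membrane-bound serine proteases were lower as well. Of 10 listed, 3 were measured and all 3 were at least 2-fold lower in the ICM, against 44.0% of all measured genes. Their ICM levels were under an RPKM of 1, so they passed the filter through the whole-blastocyst library alone. Among the genes of this list under an RPKM of 1 in both libraries, Tmprss11d had 16 ICM reads and no whole-blastocyst read. Hpn, Tmprss11a and Prss22 had whole-blastocyst reads alone. Tmprss2 had 0.108 RPKM (6 reads) in the ICM and 12.1 RPKM (801 reads) in the whole blastocyst. St14, which encodes matriptase, had 0.697 and 8.19 RPKM in the ICM and the whole blastocyst, and Prss8, which encodes its partner prostasin, had 0.999 RPKM in the ICM and 7.04 RPKM in the whole blastocyst. The implantation and embryonic serine proteases were divided. Of 4 measured genes 2 were higher and 2 lower, against 8.96% and 44.0% of all measured genes. Each of them passed the filter only through the library in which it was higher. Prss23 had 3.77 RPKM (441 reads) in the ICM and 0.00720 RPKM (1 read) in the whole blastocyst, a ratio of 523 (93.5 to 20722). Htra2, a mitochondrial protease, had 0.599 RPKM in the ICM and 4.29 RPKM in the whole blastocyst, and Prss12 had no ICM read and 2.13 RPKM in the whole blastocyst. None of the 20 listed granzymes, mast cell, neutrophil and pancreatic proteases was measured, and they held 1 read in all.

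Receptors stood on both sides. Of the 7 measured protease-activated and clearance receptors, 5 were at least 2-fold lower in the ICM and 1 higher. Over all measured genes these shares were 44.0% and 8.96%. F2r, the thrombin receptor PAR1, had 10.5 RPKM (1254 reads) in the ICM and 0.826 RPKM (117 reads) in the whole blastocyst, 12.7-fold higher (10.5 to 15.5). Lrp2 (megalin), an endocytic receptor that also takes up serpin and protease complexes, had 1.38 and 128.7 RPKM in the ICM and the whole blastocyst. F2rl1, the receptor PAR2 that trypsin-like proteases activate, had 18.1 RPKM (1748 reads) in the ICM and 113.6 RPKM (13046 reads) in the whole blastocyst, and is named beyond the rule of 3 as the paralog of F2r.

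Of 7 measured cathepsins, 2 were at least 2-fold lower in the ICM and none higher, against 44.0% and 8.96% of all measured genes. Ctsz had 0.648 and 13.6 RPKM in the ICM and the whole blastocyst, and Ctsh had no ICM read and 4.63 RPKM in the whole blastocyst. Both passed the filter through the whole-blastocyst library alone. Among the cathepsins under an RPKM of 1, Ctsk had 19 ICM reads and Ctso 1, with no whole-blastocyst read for either. Ctsf had 10 ICM reads and 18 whole-blastocyst reads. Of the 5 measured convertase and caspase genes 2 were lower, a share close to the 44.0% of all measured genes. They were Furin at 0.502 RPKM in the ICM and 3.69 RPKM in the whole blastocyst and Pcsk7 at 0.653 RPKM in the ICM and 3.72 RPKM in the whole blastocyst. Furin and Pcsk7 passed the filter through the whole-blastocyst library alone, and neither was 2-fold lower after centring.

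Inhibitors outside the serpin family gave a mixed picture. Of 5 measured inhibitors of serine proteases, 3 were at least 2-fold lower in the ICM and 1 higher, against 44.0% and 8.96% of all measured genes. Wfdc2 had 1.08 and 20.5 RPKM in the ICM and the whole blastocyst. Spint2, which inhibits matriptase and prostasin, had 19.8 RPKM in the ICM and 58.2 RPKM in the whole blastocyst. Tfpi, the inhibitor of tissue factor, had 10.5 RPKM in the ICM and 3.77 RPKM in the whole blastocyst. Spint1, the relative of Spint2, was within 2-fold at 44.3 RPKM in the ICM and 55.3 RPKM in the whole blastocyst. Among 6 other measured inhibitors 3 were lower and 1 higher, again against 44.0% and 8.96% of all measured genes. Cstb (cystatin B) had 18.5 RPKM in the ICM and 386.0 RPKM in the whole blastocyst, Timp3 had 1.29 RPKM in the ICM and 6.65 RPKM in the whole blastocyst, and Csta had no ICM read and 221 whole-blastocyst reads. Timp1, the higher one, had 15 ICM reads and no whole-blastocyst read. Csta and Timp1 each passed the filter only through the library in which they had reads.

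Desmosomal genes, whose products include substrates of skin kallikreins, were at least 2-fold lower in 5 of 5 measured cases. This call was made for 44.0% of all measured genes, and Dsg2 was at the limit with a difference of -1.01. Among the genes of this list under an RPKM of 1, Dsc1 (21 ICM reads) and Dsg3 (2 ICM reads) had no whole-blastocyst read. Dsp (desmoplakin) had 1.57 and 29.4 RPKM in the ICM and the whole blastocyst, and Dsc2 had 1.77 RPKM in the ICM and 12.4 RPKM in the whole blastocyst. Jup (plakoglobin) had 2.92 RPKM in the ICM and 10.2 RPKM in the whole blastocyst. Spink5, which encodes the inhibitor of skin kallikreins, had no read in either library, and Cdsn, the corneodesmosin substrate of Klk7, had 4 ICM reads and 18 whole-blastocyst reads. Keratinocyte markers were near 0 in both libraries, with 1 of 8 measured (Krt10, 1 ICM read and 80 whole-blastocyst reads). Relative to the centre, at least 2-fold lower were 2 of the 3 measured plasminogen genes, all 3 membrane proteases, 4 of the 7 receptors, 2 of the 5 desmosomal genes, 2 of the 7 cathepsins, 2 of the 6 other inhibitors, 1 of the 5 serine protease inhibitors, 1 of the 4 implantation and embryonic proteases and none of the 5 convertase and caspase genes, against 20.5% of all measured genes. At least 2-fold higher relative to the centre were 2 implantation and embryonic proteases, 2 convertase and caspase genes, 2 other inhibitors and 1 gene each of the receptors, serine protease inhibitors and cathepsins, against 16.9% of all measured genes.

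**Figure D5:**
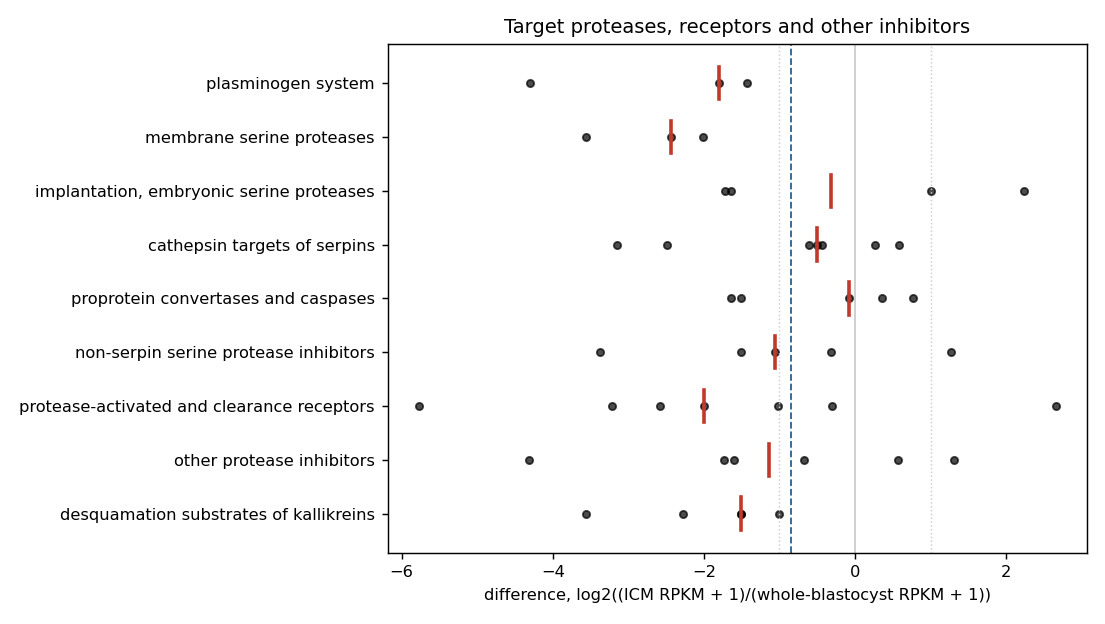
Difference of each measured gene (points), log2((ICM RPKM + 1)/(whole-blastocyst RPKM + 1)), in the lists of target proteases, receptors, other inhibitors and desmosomal substrates, with the list median (red bar), the median of all measured genes at -0.84 (dashed line) and the 2-fold limits (dotted lines). The membrane proteases, the plasminogen system and the desmosomal genes lay wholly below -1.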

How the data were processed

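RNA of 2 libraries, ICM and whole blastocyst, was amplified with the NuGEN Ovation system and sequenced as SOLiD fragment libraries, per the labels' protocols. For each gene and library the authors deposited a read count and an RPKM. Per the submitters' processing notes the genome build was mm9. The aligner, the annotation and the rules for multi-mapping and strand are not stated there. RPKM over count kept 1 ratio between the libraries, so the deposited RPKM rests on an ICM total of 0.842 of the other library's, while the listed reads had a ratio of 0.445.

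Members and lists were chosen with earlier results of these data known. Differences, filters, intervals and the floor of 3 reads are as stated with the results. Every measured member is named. Of each list of related genes up to 3 past 2-fold are named, and others named were chosen after their values were seen. A few genes are not reported here. All 82 symbols matched RefSeq (GRCm38.p6), used for names, gene order and promoters. Older symbols counted where no other gene now carries them. Ratios of ratios are cross-products of the read counts, with the exact interval of the conditional odds ratio. The intervals were tested on simulated Poisson counts, the model they assume, which cannot show how they behave on amplified reads. Python 3.11.15, SciPy 1.17.1, MAFFT 7.526 and, for the TMM factor alone, edgeR 4.0.16 were used.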

Additional observations from a re-analysis of the deposited data

How the results depend on the processing

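No paired analysis was possible because each group has 1 library. Values of the 11 measured genes were recomputed under 8 alternatives. Of 83 such values none reversed a called direction, and 8 crossed the 2-fold limit. Serpinb6a came to -0.88 on listed gene reads, -0.85 as TPM and -0.91 with TMM, so that 5 members were at least 2-fold lower under these 3 and 6 under the others. Serpina4-ps1 came to 1.01 when centred and 1.45 as TPM. With a pseudocount of 5, Serpina3n was at 0.42, Klk4 at 0.78 and Klk13 at 0.73, so that 0 members were at least 2-fold higher, as with a filter at RPKM 5, which none of the 3 passed. The median of the serpins (-1.95) was -1.99 with a pseudocount of 0.1, -1.59 with 5, -0.16 without a filter, -3.11 with a filter at RPKM 5, -1.29 centred, -1.06 on listed gene reads, -1.03 as TPM and -1.09 with TMM. That of clade B (-3.20) was, in the same order, -4.03, -2.17, -0.28, -3.20, -2.54, -2.64, -3.09 and -2.66. That of the kallikreins (2.11) was 5.09, 0.73, -0.30, -5.62, 2.77, 2.86, 5.21 and 2.83, and it reversed with no filter and with the stricter filter because the genes entering it changed. Over all measured genes the share at least 2-fold lower was between 19.6% and 51.2%. Genes with under 20 reads in both libraries have wide counting intervals, and no replicate bounds any other error.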
